A study of Homo sapiens with 4 samples.

Results

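The genes described here are 10 transcription factor genes of the myeloid lineage: SPI1, CEBPA, CEBPE, CEBPD, GFI1, MYB, IRF8, KLF4, EGR2 and TCF4. They were chosen by name. For each, the probe set listed under its symbol in the platform annotation was taken, and 9 of the 10 had exactly 1 such probe set. EGR2 was listed under none and was not analysed here. A gene entered the tested set of 13064 genes when its signal exceeded the median of all 53617 probe sets (3.08 log2 units) in at least 1 array. CEBPE stayed below that level in every array, which left 8 tested genes.

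All 4 arrays come from MV4-11, a long-established monocytic cell line from human acute myeloid leukaemia that carries a KMT2A-AFF1 fusion gene. The fusion is present in the control too. Cells carried a hairpin RNA against luciferase (control), or 1 of 3 hairpins against RUNX1, labelled moderate, profound 1 and profound 2. All were given 3 µM doxycycline for 24 h, the control included. Each hairpin was measured on 1 array from a bulk RNA sample, so no value below has a replicate error and no p-value is given. In bulk RNA, fewer cells that express a gene and less RNA per cell cannot be told apart. The comparison asks whether the labelled depth of RUNX1 knockdown goes with a difference in the factors that set myeloid identity.

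Myeloid cells are specified by a small set of DNA-binding factors that act on one another and on shared targets. PU.1, the ETS factor encoded by SPI1, and C/EBP alpha, encoded by CEBPA, open the myeloid programme in progenitors. C/EBP epsilon and GFI1 then serve granulocytes, whereas IRF8, KLF4 and EGR2 serve monocytes and macrophages. MYB maintains proliferating progenitors. TCF4, also called E2-2, is an E protein that specifies plasmacytoid dendritic cells. RUNX1 binds many of the same regulatory regions, and SPI1 is among its well-known targets.

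Sequences of the members' start sites are shown because RUNX1 and several members are known to act on these genes through short DNA motifs. The RefSeq promoter table (GRCh38.p14) held 19 windows for 7 of the 9 measured members, 10 of them for TCF4 and none for SPI1 or CEBPD. Each window runs from 250 bases before to 50 bases after a start site. The RUNX letters TGTGGT or TGCGGT, read on both strands, occurred in the windows of GFI1 and IRF8, that is in 2 of 19 windows (10.5%) against 19.6% of all 35116 windows. Because TCF4 has 10 of the 19, the share by window mostly describes that gene. By gene, 2 of 7 members held these letters, against 22.9% of all 27305 genes. No window of CEBPA, CEBPE, MYB, KLF4 or TCF4 held these letters. The stretches are printed 5′ to 3′ on the strand of the gene, with the motif in capitals. The GFI1 stretch lies at chr1:92486111-92486176 on the minus strand, with the motif ending 41 bases before a start site, and that of IRF8 at chr16:85902666-85902731 on the plus strand, 128 bases before a start site.
GFI1, RUNX letters: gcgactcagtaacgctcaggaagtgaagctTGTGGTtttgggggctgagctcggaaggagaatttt
IRF8, RUNX letters: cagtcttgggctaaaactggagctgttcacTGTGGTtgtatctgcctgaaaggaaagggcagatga

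Motifs of the members themselves were searched in the same windows. The C/EBP letters TTGCNNAA occurred in 3 of 19 windows (15.8%, against 10.5% of all windows), 1 of GFI1 and 2 of TCF4. The PU.1 letters GAGGAA occurred in 8 of 19 windows (42.1%, against 27.9%), which belong to CEBPE, GFI1, KLF4, MYB and TCF4. The GFI1 window with the C/EBP letters is the same window that holds its RUNX letters. The MYB letters AACNG are too short to be selective: 77.2% of all windows and 16 of the 19 held them. The GFI1 letters AAATCA (KLF4 and TCF4) and the EGR letters GCGTGGG (GFI1 and TCF4) each occurred in 2 of 19 windows, against 13.2% and 6.98% of all windows. By gene, 2 of 7 members held the C/EBP letters and 5 of 7 the PU.1 letters, against 12.7% and 31.8% of all genes. For the MYB letters it was 6 of 7 (80.5%), for the GFI1 letters 2 of 7 (15.6%) and for the EGR letters 2 of 7 (8.30%), with the share of all genes in brackets. A match is a string of letters and not a measured binding site. The stretches below lie at chr1:92486204-92486271, chr18:55588275-55588342, chr14:23119261-23119326, chr9:107489788-107489853 and chr18:55322001-55322066, all on the minus strand.
GFI1, C/EBP letters: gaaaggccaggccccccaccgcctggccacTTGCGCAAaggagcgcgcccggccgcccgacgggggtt
TCF4, C/EBP letters: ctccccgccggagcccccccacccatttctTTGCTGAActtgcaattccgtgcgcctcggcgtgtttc
CEBPE, PU.1 letters: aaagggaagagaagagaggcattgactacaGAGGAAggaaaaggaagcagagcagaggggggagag
KLF4, PU.1 letters: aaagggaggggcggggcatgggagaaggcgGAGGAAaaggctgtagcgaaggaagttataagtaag
TCF4, PU.1 letters: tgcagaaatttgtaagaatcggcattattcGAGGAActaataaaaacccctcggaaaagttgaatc

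The label check came first. RUNX1 shares its probe set with LOC100506403, so its signal is not specific. It read 4.27 log2 units in control, 4.33 in moderate, 4.07 in profound 1 and 4.04 in profound 2. The description fields of profound 1 and profound 2 name other RUNX genes, against their titles and genotypes. The arrays are called control, moderate, profound 1 and profound 2 only as their labels do. Per-array medians over all probe sets were 3.07 to 3.09. As a yardstick for a difference, the robust SD (scaled median absolute deviation) between a pair of arrays was taken over genes in 6 classes of mean level. It holds noise and real differences together. For signals at the level of the RUNX1 probe set it was 0.22, 0.28 and 0.25 log2 units for moderate, profound 1 and profound 2 against control. The RUNX1 differences of 0.06, -0.19 and -0.22 were inside it, so the probe set shows neither a moderate nor a profound knockdown beyond that spread. In the class of TCF4, CEBPD and GFI1 it was 0.13 log2 units for moderate against control, 0.26 for profound 1 and 0.16 for profound 2. Of the line's own markers, PTPRC, FLT3, SPN, CD4 and MEIS1 read well above the table median in all arrays. Of 11 measured monocyte markers, 7 read above it in all 4 arrays (LYZ, CD68, CSF1R, MS4A7, S100A8, S100A9 and FCN1), and CD14, CD163, VCAN and FCGR3A read below it in all 4.

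The myeloid factors differed little between hairpins. None of the 8 tested members was 1.5-fold from control (0.58 log2 units) in any array. Over all tested genes 1.46% were called at that size in moderate, 6.78% in profound 1 and 2.40% in profound 2, and 0.681% in both arrays labelled profound with the same sign. A count of 0 of 8 is near what these shares give, so it does not set the members apart. The median size of a member's difference from control was 0.09 log2 units for moderate, 0.13 in profound 1 and 0.11 in profound 2, against 0.11, 0.18 and 0.13 over all tested genes. Within the yardstick lay 6, 6 and 5 of the 8 members, against 67.2%, 67.4% and 66.8% of all tested genes. TCF4 and CEBPD lay beyond it in every comparison with control, and IRF8 in profound 2. The signals of all 9 measured members are plotted by array, and the TCF4 panel is the widest.

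**Figure D1:**
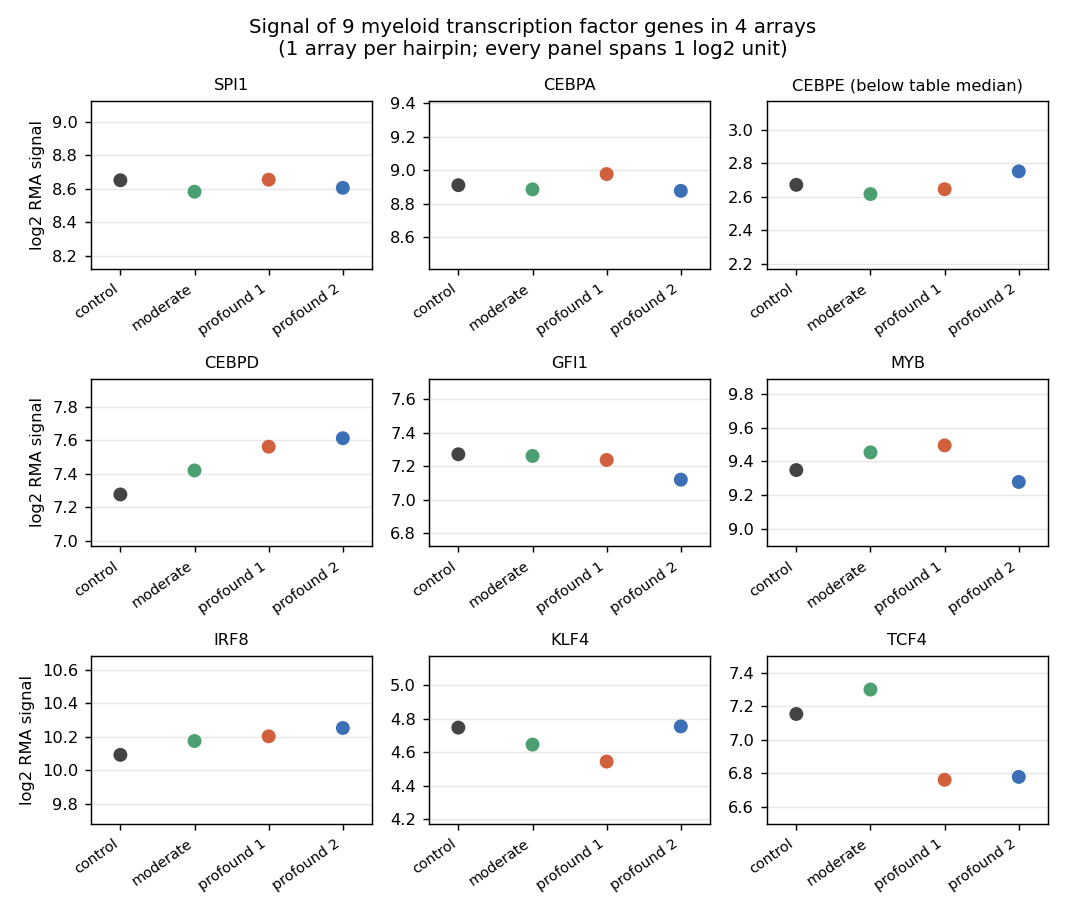
Log2 RMA signal (vertical axis) of the 9 measured factors in the 4 arrays (horizontal axis), 1 point per array; every panel spans 1 log2 unit around the gene's mean. SPI1 stays within 0.07 log2 units, and TCF4 is 0.54 lower in profound 1 than in the array labelled moderate.

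SPI1 and CEBPA, the founders of the myeloid programme, varied least. SPI1 read 8.65 in control, 8.58 in moderate, 8.65 in profound 1 and 8.61 in profound 2. Its range of 0.07 log2 units (1.05-fold) was wider than that of only 2.18% of tested genes of all levels. Bright genes vary less: the median range was 0.22 in the level class of SPI1 and CEBPA, against 0.31 over all tested genes. CEBPA read 8.91 in control, 8.89 in moderate, 8.98 in profound 1 and 8.88 in profound 2, a range of 0.10. All differences of both genes from control, between -0.07 and 0.07, were inside the yardstick, and no array stood apart. The sign of the SPI1 difference in profound 1 (0.00) was negative after centring each array on its median (-0.01).

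Of the known targets of PU.1 and of the C/EBP factors, 1 gene passed 1.5-fold, in 1 array. Of 11 tested PU.1 targets, 0 were 1.5-fold from control in the array labelled moderate and in profound 2. In profound 1, where 6.78% of all tested genes were called, 1 was. That gene is CSF2RA, the GM-CSF receptor alpha chain, at 7.33 in control, 7.63 in moderate, 7.97 in profound 1 and 7.21 in profound 2. The median difference of the list was 0.26 log2 units for moderate, 0.12 for profound 1 and -0.02 for profound 2, beside 0.01, 0.00 and 0.00 over all tested genes. FCER1G, a signalling adaptor of Fc receptors, read 7.56 in control and 8.12 in moderate, against 7.5 and 7.49 in profound 1 and profound 2. Targets of C/EBP alpha and epsilon had medians of 0.14, 0.28 and 0.17 over 13 tested genes, of which 0 reached 1.5-fold in any array. Among them, CSF3R, the G-CSF receptor gene and a target on both lists, read 6.04 in control and 6.55, 6.60 and 6.30 in the 3 arrays of RUNX1 hairpins. Of its tested granule genes, MPO, ELANE, AZU1, PRTN3, CAMP and BPI read above control in both arrays labelled profound, CTSG and PRG2 read below it in both, and LCN2 lay on either side. The neutrophil elastase gene ELANE read 10.31, 10.45, 10.72 and 10.68 in control, moderate, profound 1 and profound 2, and the cathepsin G gene CTSG read 10.18, 10.51, 9.62 and 10.04.

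Among the other C/EBP members, CEBPD was above control with every RUNX1 hairpin. C/EBP delta is a C/EBP factor induced by cytokines and differentiation signals. It read 7.28 in control, 7.42 in moderate, 7.56 in profound 1 and 7.61 in profound 2. The differences of 0.14, 0.28 and 0.34 log2 units correspond to 1.10-, 1.22- and 1.26-fold. They were 1.08, 1.09 and 2.16 times the yardstick. In both arrays labelled profound, 4.14% of tested genes of all levels were higher than control by at least as much as CEBPD. By that measure its position is not rare, but no share was taken among genes of its own level. All 3 differences share the 1 control array. Against the array labelled moderate, CEBPD was higher by 0.14 and 0.19 in profound 1 and profound 2, inside and just above the yardstick.

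CEBPE, the factor of late granulocyte maturation, read 2.67 in control, 2.62 in moderate, 2.64 in profound 1 and 2.75 in profound 2. RMA pulls signals this low toward a floor, so these values do not measure a difference. Among the granule genes known as its targets, LTF and MMP8 read below the table median in all arrays, whereas CAMP (3.29, 3.16, 3.58 and 3.39 in control, moderate, profound 1 and profound 2) and LCN2 (3.88, 4.07, 3.82 and 4.01) read above it. Of 4 other tested genes listed with the C/EBP family (CEBPB, CEBPG, CEBPZ and DDIT3), 0 were called in both arrays labelled profound. DDIT3, the stress-induced CHOP, read 2.93 in control, 2.92 in moderate, 3.46 in profound 1 and 3.52 in profound 2. The last value made it the 1 gene of the list called in any array, by 0.59 log2 units in a dim range. In profound 2, 2.40% of all tested genes were called. CEBPG was lower in profound 1 (7.94 against 8.34), and CEBPB lay between 5.52 and 5.75.

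GFI1 is a zinc finger repressor that favours granulocytes over monocytes, and it was level. It read 7.27 in control, 7.26 in moderate, 7.24 in profound 1 and 7.12 in profound 2. The lowest array differed by -0.15 log2 units, just inside the yardstick of 0.16. Its paralog GFI1B and its corepressors KDM1A, RCOR1, HDAC1, HDAC2 and HDAC3 were all tested, and 0 of 6 were 1.5-fold from control in any array. The furthest was RCOR1, at 7.95 in control and 8.21 in profound 1. Genes that GFI1 is known to repress had medians of 0.05, 0.05 and 0.11 over 7 tested genes. EGR1 was the 1 gene of that list past 1.5-fold, on the lower side in profound 1, where 4.03% of all tested genes were.

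MYB, which sustains progenitor proliferation, read 9.35 in control, 9.45 in moderate, 9.5 in profound 1 and 9.28 in profound 2. The arrays labelled profound lay on opposite sides of control, 0.15 above and 0.07 below. The difference between them, 0.22, was 1.04 times the yardstick. Both of its paralogs were called in profound 1, and neither was in the other arrays. MYBL2, the cell-cycle member of the family, read 9.43 in control, 9.35 in moderate, 8.58 in profound 1 and 9.39 in profound 2. MYBL1, the germ-line member, read 4.48, 4.44, 3.43 and 4.33 in the same order. These are 2 of 5 tested relatives and cofactors in profound 1, where 4.03% of all tested genes were 1.5-fold lower. Profound 1 is also the array with most called genes. MYBL2 was thus lower than control by 0.85 log2 units in profound 1 and by 0.04 in profound 2.

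Known MYB targets went both ways. Of 9 tested, 2 were 1.5-fold above control in profound 1 (CCNA1 and ADA) and 2 were 1.5-fold below it (KIT and CCNB1). Of all tested genes, 2.76% were called higher there and 4.03% lower. KIT alone was also called in profound 2, and 0.337% of all tested genes were lower by that size in both. This stem cell factor receptor gene was at 5.07 in control, 4.59 in moderate, 4.30 in profound 1 and 4.42 in profound 2. CCNB1, a mitotic cyclin, was at 7.98, 7.74, 7.14 and 7.72. BCL2, an inhibitor of apoptosis, was lower by 0.39 and 0.36 log2 units in profound 1 and profound 2, short of the size rule. CCNA1, a myeloid and germ-line cyclin, read 7.60 in control and 8.03, 8.23 and 8.04 in the arrays of RUNX1 hairpins. The medians of the list were -0.05, -0.13 and 0.09.

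**Figure D2:**
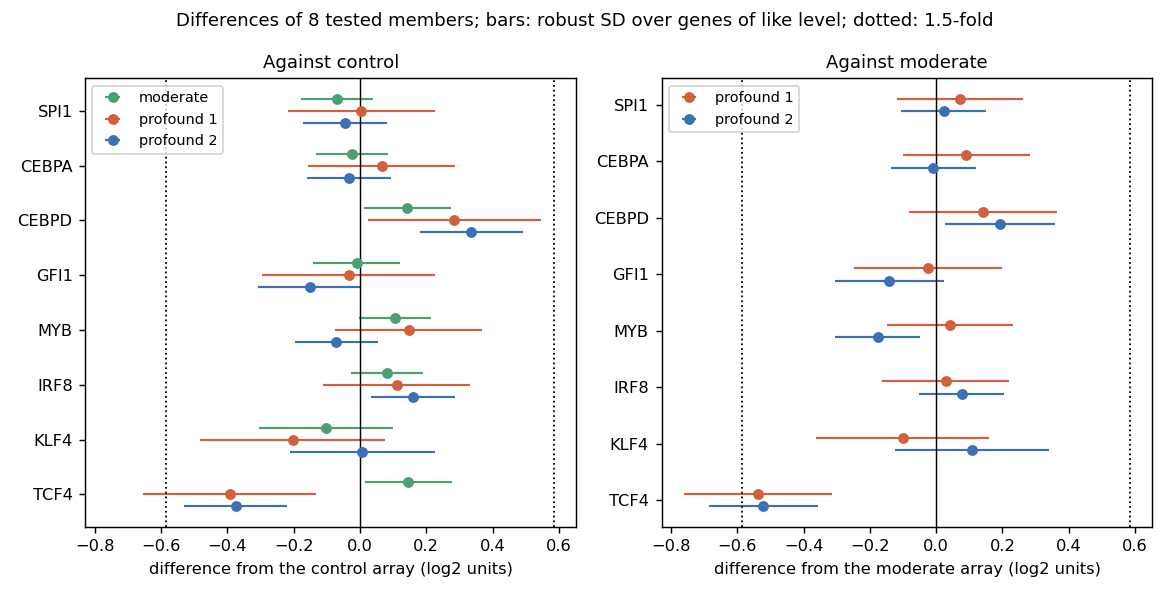
Difference in log2 signal (horizontal axis) of the 8 tested factors from the control array (left) and from the array labelled moderate (right); bars are the robust SD over genes of like level and dotted lines mark 1.5-fold. No point passes 1.5-fold; TCF4 lies lowest in both arrays labelled profound, at -0.39 and -0.38 from control and -0.54 and -0.52 from the array labelled moderate.

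IRF8, which specifies monocytes and dendritic cells, read 10.09 in control, 10.17 in moderate, 10.20 in profound 1 and 10.25 in profound 2. The differences of 0.08, 0.11 and 0.16 log2 units were 0.76, 0.50 and 1.27 times the yardstick. In both arrays labelled profound, 15.7% of tested genes were higher by at least as much as IRF8 was. None of 7 other IRF genes was 1.5-fold from control in both arrays labelled profound, and IRF4 alone was in the array labelled moderate (3.83 to 4.44, while profound 1 and profound 2 read 3.79 and 3.96). In the array labelled moderate 1.46% of all tested genes were called. Of 11 tested IRF8 targets, 1 was called, in profound 1, where 6.78% of all tested genes were. It was CIITA, the regulator of MHC class II genes, at 4.64 in control, 4.95 in moderate, 5.35 in profound 1 and 4.94 in profound 2. CD74, the class II invariant chain, read 6.24, 6.55, 6.75 and 6.43, in the same order of arrays.

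KLF4, a zinc finger factor of monocyte differentiation, read 4.75 in control, 4.65 in moderate, 4.54 in profound 1 and 4.75 in profound 2. The lowest value, in profound 1, was 0.20 log2 units below control and inside the yardstick of 0.28. Of 12 other KLF genes, 0 were 1.5-fold from control in any array. KLF6 lay below control by 0.37 and 0.32 in profound 1 and profound 2, and KLF12 by 0.27 and 0.56. The list of KLF4 and EGR2 targets had 6 tested genes, 0 called, and medians of 0.03, 0.02 and 0.07, and its monocyte marker CD14 read 2.10 to 2.33 in the 4 arrays.

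EGR2 itself was not analysed here, so its family stands beside the gap and not in its place. EGR1, an immediate early factor that favours macrophages, read 7.03 in control, 6.75 in moderate, 6.35 in profound 1 and 6.51 in profound 2. It was lower than control by 0.68 and 0.52 in the arrays labelled profound. NAB2, a corepressor of EGR factors and itself induced by them, read 4.73, 4.72, 3.97 and 4.15 in the same order, lower by 0.76 and 0.58, the second value just short of 1.5-fold. NAB1 was lower by 0.64 in profound 1 and 0.16 in profound 2. So 3 of the 5 tested genes of the list were 1.5-fold lower in profound 1, where 4.03% of all tested genes were, and 0 in profound 2. EGR3 and EGR4 did not share the direction: EGR3 was higher by 0.11 and 0.21 and EGR4 was at -0.13 and 0.14.

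**Figure D3:**
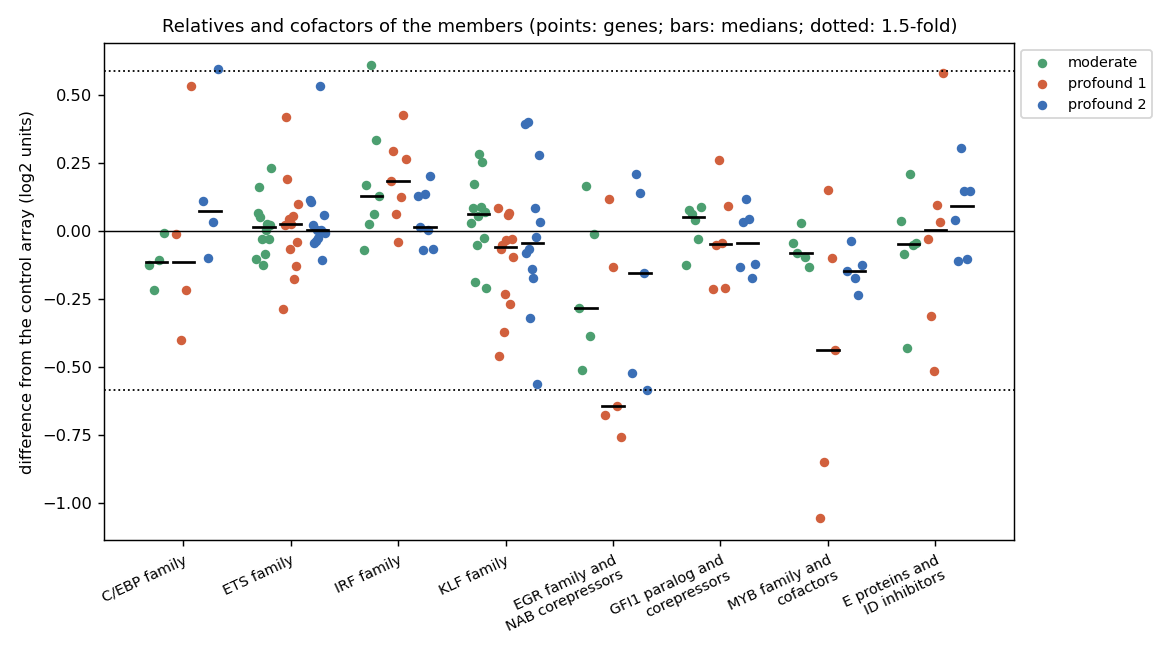
Difference from the control array in log2 units (vertical axis) for the tested relatives and cofactors of the members, by family (horizontal axis) and array (colour); bars are medians and dotted lines 1.5-fold. The EGR and NAB list has the lowest median in profound 1, -0.64 over 5 genes; the 12 tested ETS genes have medians of 0.01, 0.02 and 0.00.

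TCF4 showed the widest difference among the members. It read 7.15 in control, 7.30 in moderate, 6.76 in profound 1 and 6.78 in profound 2. Both arrays labelled profound were below the other 2 arrays, and they were 0.02 log2 units apart. Against control the differences were 0.15, -0.39 and -0.38, that is 1.11-fold higher, 1.31-fold lower and 1.3-fold lower. They were 1.10, 1.5 and 2.42 times the yardstick. Of all tested genes, 1.63% (213) were lower than control in both arrays labelled profound by at least as much. These differences share the 1 control array. The range over the 4 arrays, 0.54, exceeded that of 82.8% of tested genes of all levels. The median range was 0.27 in the level class of TCF4 and 0.31 over all tested genes.

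The array labelled moderate gives a view of TCF4 that does not use the control array. Against it TCF4 was lower by 0.54 log2 units in profound 1 and by 0.52 in profound 2, or 1.45- and 1.44-fold, which is 2.42 and 3.15 times the yardstick. In both, 0.773% (101) of tested genes lay as far below it. Both differences share the 1 array labelled moderate, where TCF4 had its highest reading. At 1.5-fold, 0 of 8 members were called in these comparisons, where 5.27% (profound 1), 2.87% (profound 2) and 0.834% (both) of tested genes were. At 1.3-fold TCF4 was the 1 member called in profound 1, in profound 2 and in both against the array labelled moderate, where 16.1%, 11.2% and 3.67% of tested genes were. Against control at 1.3-fold it was called in profound 1, beside 18.9% of tested genes, and missed the limit in profound 2.

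Other E proteins and their inhibitors stayed under the size rule. TCF3, the E protein E2A, read 8.39 in control, 8.42 in moderate, 8.36 in profound 1 and 8.43 in profound 2. TCF12, the E protein HEB, was lower by 0.31 in profound 1 and 0.11 in profound 2. Of the ID genes, which encode inhibitors of E proteins, ID2 lay at 5.00 to 5.21 and ID1 was at 3.94, 3.5, 3.42 and 4.24 in control, moderate, profound 1 and profound 2. LYL1, a basic helix-loop-helix partner in blood progenitors, was higher by 0.58 in profound 1 and 0.15 in profound 2. No gene of the 6 tested in this list was called at 1.5-fold in any array.

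Of the 14 measured genes of the TCF4 and plasmacytoid dendritic list, 9 read above the table median in every array and 5 read below it in every array. The 5 low genes are CLEC4C, LILRA4, GZMB, TCL1A and TLR7. Of the 9 tested genes, SLC15A4, a lysosomal transporter for Toll-like receptor signalling, was 1.5-fold higher in the array labelled moderate (6.58 to 7.19, with 7.13 in profound 1 and 6.83 in profound 2). There, 0.957% of all tested genes were 1.5-fold higher in the array labelled moderate. NRP1, a semaphorin coreceptor, was lower in profound 1 (5.28 to 4.46) and read 5.62 in the array labelled moderate and 4.88 in profound 2. Both arrays labelled profound were thus below the other 2, as for TCF4, and no other tested gene of the list had this order. IRF7, for example, was higher than control by 0.43 in profound 1 and 0.20 in profound 2. IL3RA, the interleukin-3 receptor alpha chain, read 7.13, 7.59, 7.47 and 7.14. The medians of the list were -0.10, -0.12 and 0.11.

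**Figure D4:**
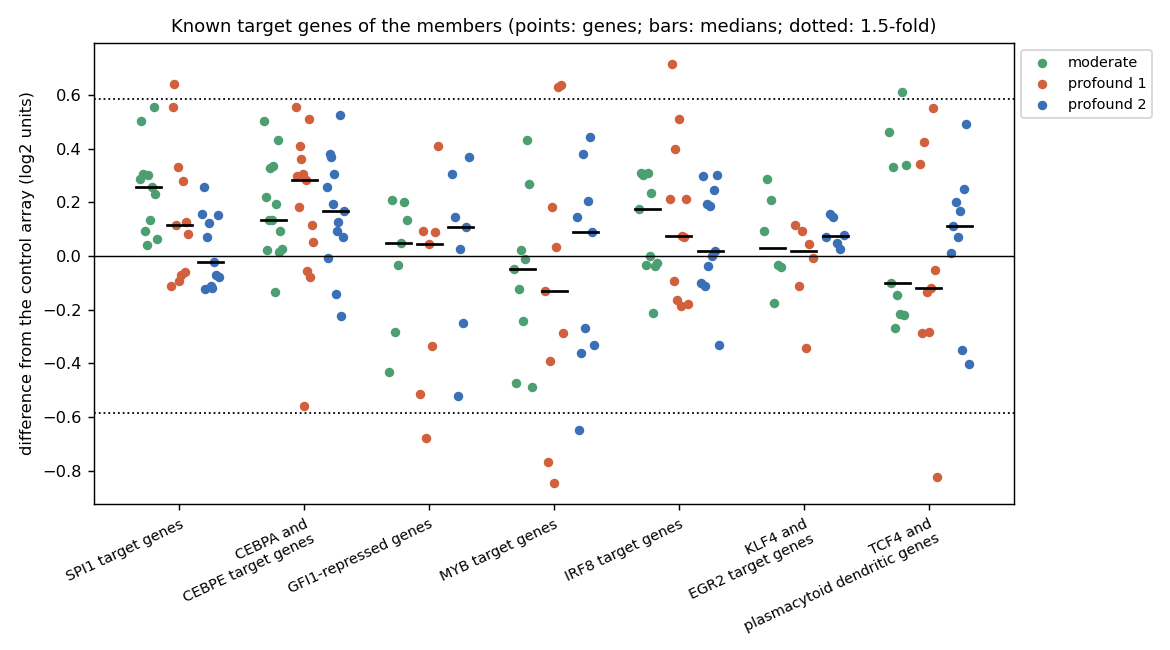
Difference from the control array in log2 units (vertical axis) for tested genes known as targets of the members, by list (horizontal axis) and array (colour); bars are medians and dotted lines 1.5-fold. The C/EBP target list has medians of 0.14, 0.28 and 0.17, and none of its genes passes 1.5-fold.

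Between the arrays labelled profound, the members differed by at most 0.22 log2 units. The differences of profound 1 from profound 2 ran from -0.21 (KLF4) to 0.22 (MYB) over the 8 tested members. Their median size was 0.08 log2 units, against 0.18 over all tested genes, and 7 of 8 were inside the yardstick, beside 67.2% of all tested genes. The value of 0.18 covers genes of every level, whereas most members are bright. In the brightest classes the robust SD was 0.24 and 0.21, against 0.26 over all tested genes. None was 1.5-fold apart, where 5.30% of tested genes were. That count is near what this share gives, so it does not set the members apart. CEBPD, IRF8 and TCF4 differed between these arrays by 0.05, 0.05 and 0.02 log2 units, each lower in profound 1.

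Some other lineage factors passed 1.5-fold. BCL6, a repressor of germinal centre and myeloid cells, read 4.30 in control, 4.86 in moderate, 5.52 in profound 1 and 4.30 in profound 2, so that only profound 1 passed 1.5-fold. Of 14 tested stem and progenitor factors, 1 was below control by 1.5-fold in profound 1 and also in profound 2, as were 0.337% of all tested genes. It was GATA2, which read below the table median in both of these arrays. HHEX, a homeobox gene of early haematopoiesis, was lower by 0.61 and 0.53, past 1.5-fold in profound 1 only. NFE2, an erythroid and megakaryocyte factor, was lower by 0.34 and 0.58, short of 1.5-fold in both. None of 9 tested AP-1 and immediate early genes was called. JUN read 5.86, 6.10, 5.73 and 5.47 and FOSB 5.52, 5.78, 5.47 and 5.11, in control, moderate, profound 1 and profound 2.

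Markers of the cell types that the factors serve were given the same reading. Of 7 tested monocyte markers, 1 was 1.5-fold higher in both arrays labelled profound (CD68), as were 0.344% of all tested genes. CD68 was 0.14 below control in the array labelled moderate. MS4A7 was called in profound 1 (higher by 0.80) and not in profound 2 (0.45). CSF1R and S100A9 were below control in profound 1 (-0.11 and -0.18) and above it in profound 2 (0.16 and 0.21). LYZ, S100A8 and FCN1 read above control in all 3 arrays of RUNX1 hairpins, short of 1.5-fold. The medians of the list were 0.23, 0.28 and 0.21 in the arrays labelled moderate, profound 1 and profound 2. Over all tested genes they were 0.007, -0.002 and -0.002. Of 9 tested neutrophil granule markers 0 were called, with medians of 0.14, 0.28 and 0.20. Of the line's own markers, ITGAX was 1.5-fold higher in all 3 arrays from a control level below the table median. For other lineages, the markers above the table median numbered 4 to 5 of 7 for B cells, 3 to 4 of 9 for T and NK cells, 3 of 6 for erythroid cells, 3 to 4 of 5 for megakaryocytes and 3 of 8 for fibroblasts and epithelium. None of these lists had a gene 1.5-fold from control in both arrays labelled profound. In single arrays some genes passed it. Of the B cell markers, IGLL1 was higher by 0.90 and VPREB1 lower by 0.71 in the array labelled moderate. In profound 1, CD79A was higher by 0.60 and the megakaryocyte marker GP9 lower by 0.77. Of all tested genes, 0.957% were called higher and 0.505% lower in the array labelled moderate, and 2.76% and 4.03% in profound 1. Whether the medians of the monocyte and granule lists go with the differences of CEBPD and TCF4 was not tested.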

How the data were processed

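The deposited table holds log2 signals of 53617 probe sets on 4 Affymetrix whole-transcript arrays, which the authors summarised by RMA. The submitters' processing notes name Expression Console 1.3.1 and Transcriptome Analysis Console 1.0. The genome build is not given in the sources used here, nor are the settings. RMA with quantile normalisation hides changes shared by most genes and compresses dim signals. RNA input was 100 ng, per the labels' protocols. Groups follow the genotype field, and 0 value columns were unused. The description fields of profound 1 and profound 2 name other RUNX genes than their titles do.

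Probe sets with 1 symbol (23871) were used; 1842 have several and 27904 have none listed. Symbols were updated to RefSeq GRCh38.p14 through the Entrez ID (88) or an unambiguous synonym (565); 4 were kept as listed. Where a gene had more than 1 probe set, that of highest mean signal stood for it. Small RNAs, immune receptor segments, antisense transcripts and predicted or unnamed genes were dropped. With 1 array per group there was no test: a call is a difference of at least 1.5-fold. Context came from 26 lists, 18 of relatives, factors and targets and 8 of markers. The named genes were drawn from the members, RUNX1 and list genes called in the array labelled moderate or in both arrays labelled profound. Up to 3 genes per list with the largest mean difference were also eligible. Not every list gene that met this rule is named, and others named were chosen after their values were seen. Members and lists were chosen with earlier results of these data known. Alternatives were other fold sizes, filters, centring, cyclic loess (limma 3.58.1) and the mean of probe sets. Python 3.11.15 and pandas 2.3.3 were used.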

Additional observations from a re-analysis of the deposited data

How the results depend on the processing

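With 1 array per hairpin no value has an error, and the number of arrays limits every difference above. No paired analysis was possible because each group has 1 array, and for the same reason no array could be left out. The count of members at 1.5-fold was also 0 after centring and after cyclic loess, in all 8 comparisons. A limit of 2-fold and the mean of all probe sets could not change it, since a count of 0 stays 0 at a higher limit and each measured member has 1 probe set. At 1.3-fold it was 1 (TCF4) in profound 1 against control, in profound 1, profound 2 and both arrays labelled profound against the array labelled moderate, and 0 in the others. The 27 differences of members from control shifted by at most 0.04 log2 units after centring and 0.03 after cyclic loess, with 1 change of sign (SPI1 in profound 1). Over all tested genes, the count called fell outside 1.5 times the value at the usual setting at other fold sizes and, except for profound 1 against control, under the stricter filter on level (the 75th percentile, 5.05). In both arrays labelled profound against control it was 89, with 1 at 2-fold, 467 at 1.3-fold and 49 under that filter. For moderate against control it was 191, with 12, 942 and 49. For profound 1 against control it was 886, with 103, 2473 and 624, the last within 1.5 times. For profound 2 against control it was 314, with 12, 1235 and 113. Against moderate, profound 1 had 689 (55, 2104 and 433), profound 2 had 375 (31, 1457 and 139) and both had 109 (6, 480 and 43), in the same order of settings. Profound 1 against profound 2 had 693 (66, 2228 and 439). Dim signals, such as CEBPE, are limited by background.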

Other observations

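No member reached the 1.5-fold range that the rule for like profiles asks for. For the 2 members with the widest range, chosen after their values were seen, the closest genes over the 4 arrays were taken, by the root mean square distance of the 3 differences from control. For TCF4 these were CASP6, an effector caspase (0.14, -0.39 and -0.36 log2 units in the arrays labelled moderate, profound 1 and profound 2), DUSP6, a phosphatase that limits ERK signalling (0.14, -0.42 and -0.42), and ZNF829 (0.11, -0.43 and -0.43). In all, 67 of 13064 genes lay within 0.1 of TCF4. For CEBPD the closest were ARID3C, ALKBH7 and TMEM176B, and 368 genes lay within 0.1. All these values share the 1 control array.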
